A study of Mus musculus with 28 samples.

Results

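Nascent RNA of 10 immediate early genes was followed in mouse embryonic stem cells (mESCs), namely Fos, Fosb, Jun, Junb, Jund, Egr1, Ier2, Ier3, Atf3 and Dusp1. They were taken by name, as a group of short genes whose transcription is controlled at the pause of RNA polymerase II (Pol II), and are 10 of the 24984 genes listed. Atf3 was the only member whose genotypes did not overlap in any of the 3 conditions. Its nascent RNA in both libraries that bear the label EloA null (the null-labelled libraries) was below that in both wild-type (WT) libraries, with mean levels 0.709 of WT in steady state, 0.414 at 5 min and 0.448 at 10 min after release from a block of Pol II elongation. Ier2 had higher mean levels in the null-labelled libraries, 1.54 times WT in steady state and 1.80 times WT at 10 min, and its genotypes overlapped at 5 min. Across all genes of a table, with 2 libraries per genotype, neither difference passed an adjusted p of 0.05 in limma.

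Bru-seq was the assay: cells are given 5-bromouridine (BrU) for a few minutes, and the RNA that incorporated it is captured with an antibody and sequenced. WT mESCs and EloA null mESCs, which lack Elongin A, a Pol II elongation factor and ubiquitin ligase subunit, were labelled with 2 mM BrU for 10 min in steady state, or for 5 or 10 min directly after 60 min in 1 µM flavopiridol (FP), an inhibitor of the kinase CDK9. Each genotype has 2 libraries in each condition, 12 in all, with 9857527 to 28547356 reads recovered from the steps between low values. Both genotypes were CCE28 cells by the growth labels (the treatment label names CJ7), grown with LIF and serum and with the MEK inhibitor PD0325901 and CHIR99021 (2i) and depleted of feeder fibroblasts before labelling. The FP libraries differ from steady state also by a wash with PBS and a change of medium, and the effects of these steps and of FP cannot be told apart. Whether a genotype rests on 1 clone is not given in the sources used here. The study calls its duplicates independent experiments and the labels do not say what was separate, so p-values measure the spread between these libraries, which may be technical.

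The 8 markers of embryonic stem cells that were examined, Pou5f1 and Nanog among them, all exceeded a mean of 0.5 RPKM (reads per kilobase of counted length, scaled to library size) in every group. The summed level of 8 feeder fibroblast markers was 0.723 to 2.54 RPKM per library, against 149 to 270.2 for the stem cell markers. Lum, Dcn and Thy1 were at or near 0. Col1a1, a collagen gene, was the highest feeder marker in every group, with group means of 0.467 to 1.23 RPKM. It alone exceeded 0.5 RPKM, in WT at 5 min and in both genotypes at 10 min. Within these lists, Pou5f1 averaged 13.5 RPKM in the null-labelled libraries and 7.92 in WT in steady state, and Col1a1 0.479 and 0.753 at 5 min, with limma adjusted p of 0.227 and 0.570. Nascent RNA of Eloa, the targeted gene (chromosome 4, 136003370 to 136021649, GRCm38), was higher in the null-labelled libraries, with RPKM of 1.96 and 1.89 against 1.18 and 1.16 in WT in steady state. Intronic reads do not show whether a functional transcript is made, so the groups are named by their labels. Replicate 1 of the null-labelled steady-state libraries has EloA null in its title and wild type as its genotype tag, and the title was followed.

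Immediate early genes are switched on within minutes of a growth factor, stress or serum signal, from transcription factors that are already present in the cell, such as SRF with its ternary complex partners and CREB. Many of them hold a Pol II paused just after the start site, which is freed when CDK9, the kinase of P-TEFb, phosphorylates the pausing factors and Pol II. Fos and Fosb pair with Jun, Junb or Jund through leucine zippers to form the AP-1 transcription factor, Atf3 is a stress-induced zipper protein of the ATF/CREB family, Egr1 is a zinc finger transcription factor, Ier2 and Ier3 are small nuclear or stress-response proteins, and Dusp1 is a phosphatase that switches off MAP kinases.

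Promoter windows of 8 members, all but Egr1 and Ier2, were found in the RefSeq table (GRCm38.p6), each covering 250 bases before and 50 bases after the transcription start. The last 150 bases before the start are printed for Atf3, Dusp1, Jun and Junb, which had enough reads to be followed through the conditions, and for Fos, the best known of the group. The window of Jund, which also had enough reads, held none of the motifs and is not printed. All are in the 5′ to 3′ direction of the gene, and capitals mark the motifs searched for, on either strand. The motifs were the full cyclic AMP response element TGACGTCA (CRE), its core TGACG, the AP-1 site TGANTCA, the TATA box TATAAA, the SP/KLF box GGGCGG and the CArG box bound by SRF. A full CRE holds the core on both strands and was counted under both.
Atf3, chr1:191183334-191183483, minus strand: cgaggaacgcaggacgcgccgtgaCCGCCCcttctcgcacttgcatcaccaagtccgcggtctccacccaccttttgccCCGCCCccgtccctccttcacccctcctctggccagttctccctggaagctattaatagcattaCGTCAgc
Dusp1, chr17:26508473-26508622, minus strand: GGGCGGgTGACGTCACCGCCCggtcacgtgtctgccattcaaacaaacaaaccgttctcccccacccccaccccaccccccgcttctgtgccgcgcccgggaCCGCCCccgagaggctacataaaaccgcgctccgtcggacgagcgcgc
Fos, chr12:85473740-85473889, plus strand: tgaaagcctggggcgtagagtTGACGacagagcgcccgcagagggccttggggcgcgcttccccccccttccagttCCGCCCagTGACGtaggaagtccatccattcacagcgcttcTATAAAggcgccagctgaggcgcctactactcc
Jun, chr4:95052223-95052372, minus strand: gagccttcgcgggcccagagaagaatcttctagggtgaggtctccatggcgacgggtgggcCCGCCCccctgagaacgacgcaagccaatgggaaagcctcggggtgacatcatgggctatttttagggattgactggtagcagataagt
Junb, chr8:84978749-84978898, minus strand: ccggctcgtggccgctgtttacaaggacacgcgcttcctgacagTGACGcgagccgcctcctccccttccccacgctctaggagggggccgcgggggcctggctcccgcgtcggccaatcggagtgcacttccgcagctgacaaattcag

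The CRE core was present in 5 of the 8 windows (Atf3, Dusp1, Fos, Fosb and Junb), against 20.8% of 32851 RefSeq promoter windows of this length. The full CRE occurred only in the Dusp1 window, between 143 and 136 bases before the start, among the 8, and in 1.79% of all windows. The SP/KLF box was found in 6 of 8 windows against 35.7% of all. The TATA box was found in 2 of 8 windows against 13.6%, in Fos from 33 to 28 bases before the start, and in Junb on the first 6 bases of the transcript. No window of the 8 held the AP-1 letters, present in 7.81% of all, or a CArG box, present in 1.63%. Sites more than 250 bases before the start were not searched, nor were the promoters of Egr1 and Ier2. The Atf3, Dusp1, Fos, Fosb and Junb windows each held motifs of different kinds, the Jun and Ier3 windows only the SP/KLF box, and the Jund window none of the 6. These matches describe letters in a window and no binding was measured here.

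**Figure D1:**
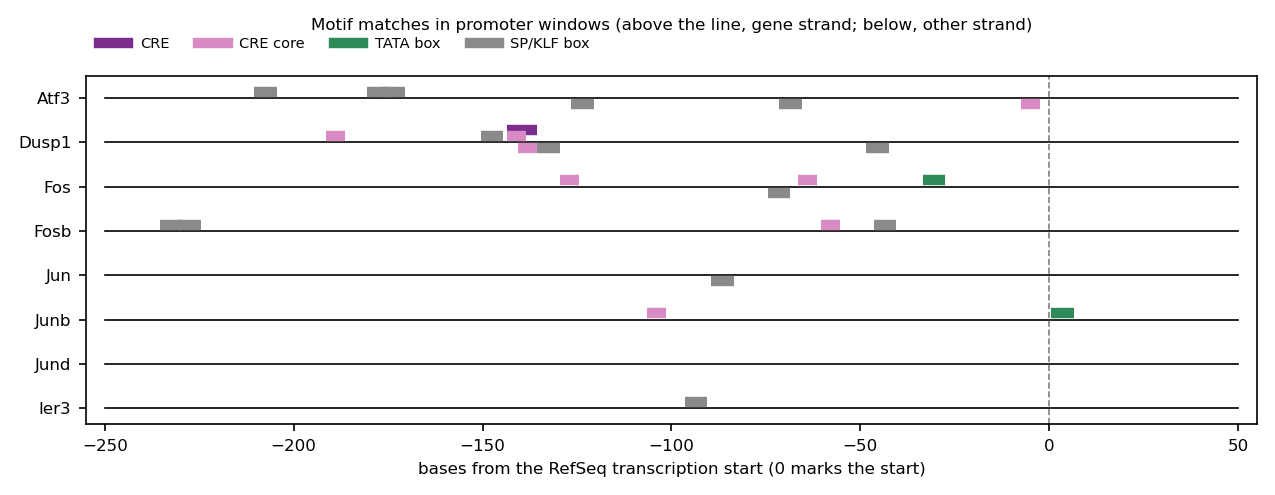
Positions of motif matches in the RefSeq promoter windows of 8 members, on the x axis in bases from the transcription start and with 1 line per gene. Colours mark the motif, marks above a line lie on the gene strand and marks below on the other strand. The CRE core appears in 5 genes, the full CRE only in Dusp1, and the Jund line is empty.

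The depth behind the members differed widely. The study's methods speak of reads counted in whole genes. The steps between low values of genes with introns, however, came out as whole reads with intron lengths plus 1 exon base on each side and seldom with spans, so these values appear to rest on intronic reads, and only those of genes with 1 exon on the whole span. Jun, Junb, Jund and Ier2 have 1 exon. On that reading the 6 members with introns were counted over 84.9% of their span in Atf3, 50.1% in Fosb, 37.9% in Fos, 32.8% in Dusp1, 18.1% in Egr1 and 9.26% in Ier3. Total reads over the 12 libraries were 6013 for Atf3, 1334 for Ier2, 643 for Dusp1, 507 for Junb, 387 for Jund, 378 for Jun, 143 for Fos, 51 for Fosb, 15 for Egr1 and 8 for Ier3. All 120 values of the members corresponded to whole reads within a tolerance of 0.05. The counted length of each member was itself picked as one that gave whole reads, so this is not a separate check. Since RPKM is per length, levels can be compared between members, but only between an intronic and a whole-span density where 1 gene of the pair has introns.

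In WT cells in steady state Ier2 was the highest member at 3.15 ± 0.371 RPKM (SD, n = 2), ranked 3064 among all listed genes. Atf3 followed at 2.68 ± 0.353, with values that overlapped those of Ier2, and Dusp1 at 2.35 ± 0.0562, whose libraries lay below both libraries of Atf3. Junb stood at 1.35 ± 0.327, apart from Dusp1. Fos (0.510 ± 0.306), Jund (0.449 ± 0.121) and Jun (0.436 ± 0.00349) could not be ordered beyond their spread. Ier3, Egr1 and Fosb were the lowest 3. At 10 min of recovery the order in WT changed at the top, where Atf3 (4.18 ± 0.825) and Dusp1 (3.94 ± 0.698) overlapped each other and both lay above Ier2 (2.32 ± 0.124). In the null-labelled libraries Ier2 stayed the highest member in all 3 conditions, and both of its libraries lay above both libraries of the next gene, Dusp1.

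**Figure D2:**
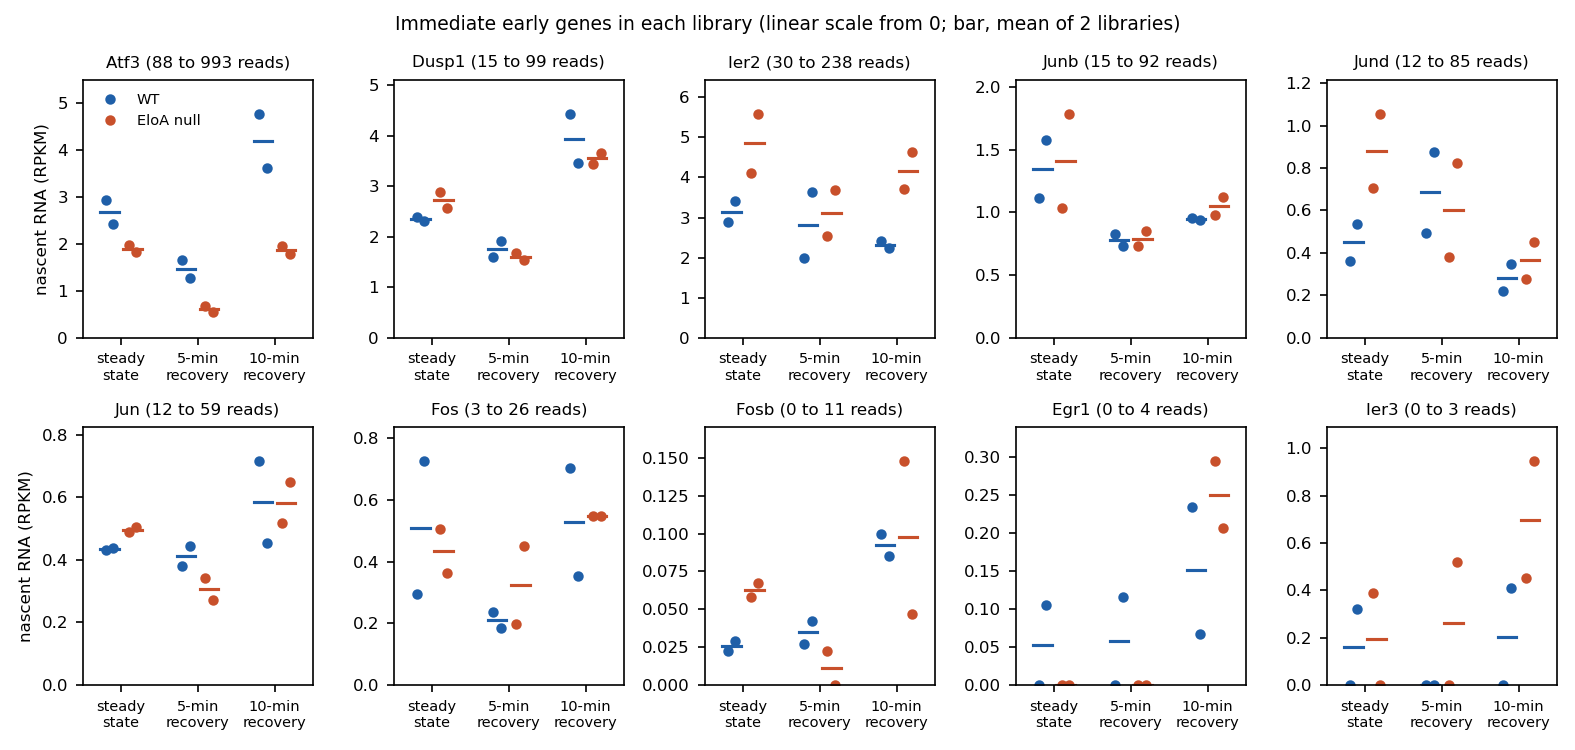
Nascent RNA of each member in every library, in RPKM on a linear scale from 0 that differs between panels, for steady state and 5 and 10 min of recovery. Points are libraries, bars are means of 2 libraries, and the range of reads per library stands above each panel. The 2 null-labelled libraries lie below the 2 WT libraries for Atf3 in each condition.

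Atf3 (chromosome 1, 191170296 to 191183333, minus strand, 4 exons) is the longest member at 13038 bases and the member with the most reads, 88 to 993 per library. In steady state its RPKM was 2.93 and 2.43 in WT and 1.98 and 1.82 in the null-labelled libraries. At 5 min of recovery it was 1.66 and 1.27 in WT and 0.667 and 0.544 in the null-labelled ones. At 10 min it was 4.77 and 3.60 against 1.96 and 1.79. The genotypes did not overlap in any condition, and the gap between them was wider in both recovery conditions than in steady state.

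The log2 change of Atf3 was -0.47 (SE 0.12, limma adjusted p = 0.178) in steady state, on the log2(RPKM + 0.1) scale. It was -1.14 (SE 0.20, limma adjusted p = 0.227) at 5 min and -1.11 (SE 0.16, limma adjusted p = 0.0991) at 10 min, so it did not pass 0.05 in any table. It passed when all 12 libraries shared 1 estimate of the spread, with a limma adjusted p of 0.0151 at 5 min and 0.0226 at 10 min, but not in steady state (0.296). At that setting 532 of 8985 tested genes passed at 5 min, 264 of 10241 at 10 min and 132 of 11347 in steady state. In leaving out 1 library at a time the change stayed between -0.60 and -0.34 in steady state, -1.32 and -0.96 at 5 min and -1.30 and -0.91 at 10 min. Without the steady-state library with conflicting labels it was -0.53. The wider gap in recovery did not pass its own test, which compares the genotype difference between conditions. That difference was -0.67 (SE 0.25, limma adjusted p = 0.688) at 5 min and -0.64 (SE 0.25, limma adjusted p = 1.00) at 10 min relative to steady state, where 0.103% of 11704 genes and 0.00850% of 11763 genes passed, and no member passed either test.

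Among genes averaging 100 reads or more per library, the Atf3 ratio of mean RPKM was the 111th lowest of 9003 in steady state, the 9th lowest of 7445 at 5 min and the 10th lowest of 8190 at 10 min. Among genes spanning 10 to 15 kb with that depth, the median ratio was 1.05, 0.976 and 1.08 in the same order. Of these genes, 7 of 1079 had a ratio at or below that of Atf3 in steady state, 1 of 871 at 5 min and 1 of 1071 at 10 min. The feeder fibroblast markers also had a lower sum in the null-labelled libraries, at 0.860 of WT in steady state, 0.649 at 5 min and 0.718 at 10 min, with 6, 7 and 7 of the 8 markers lower. Their summed level was 1.34 to 1.62 RPKM in WT and 1.21 to 1.34 in the null-labelled libraries in steady state, 1.26 to 1.40 and 0.723 to 1.01 at 5 min, and 1.99 to 2.54 and 1.44 to 1.81 at 10 min. The part of residual feeders in the Atf3 difference was not tested. In RNA from a whole culture, fewer cells that transcribe a gene and less RNA per cell cannot be told apart.

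**Figure D3:**
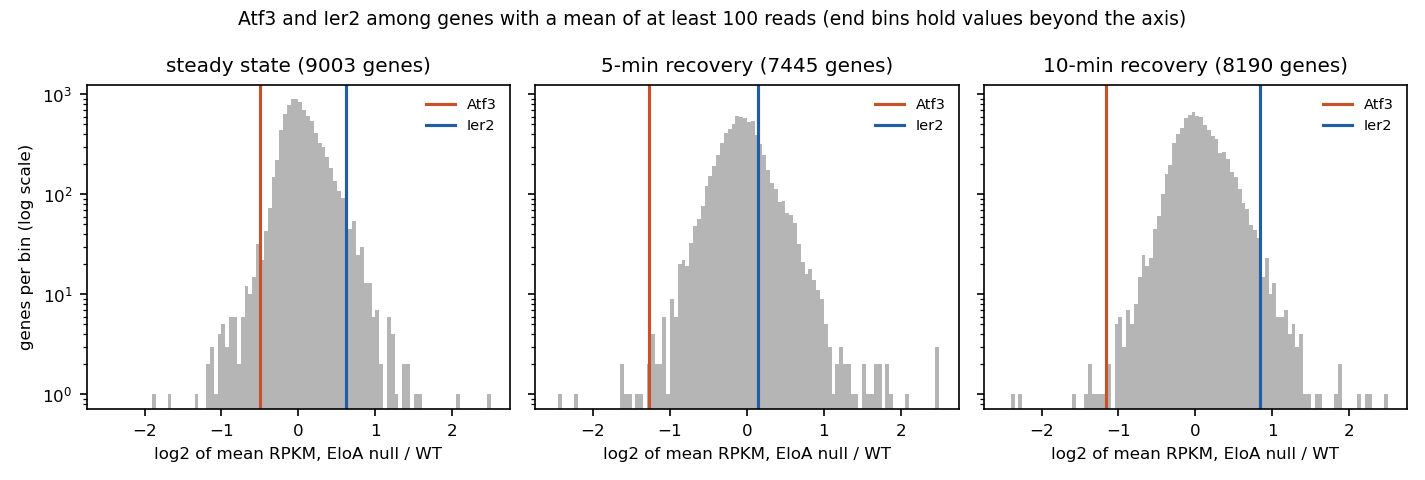
Distribution over genes of the log2 ratio of mean RPKM, EloA null to WT, for genes averaging 100 reads or more per library, in steady state (9003 genes) and at 5 min (7445) and 10 min (8190) of recovery, with a log scale for the number of genes per bin. Coloured lines mark Atf3 and Ier2, and values beyond the axis are drawn in the end bins. Atf3 lies in the low tail at 5 and 10 min, and Ier2 in the upper part in steady state and at 10 min.

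Ier2 (chromosome 8, 84661331 to 84662852, minus strand, 1 exon, 1522 bases) encodes a small nuclear protein. Its RPKM in steady state was 2.89 and 3.41 in WT and 4.12 and 5.59 in the null-labelled libraries. At 5 min it was 2.00 and 3.63 against 2.54 and 3.69, and at 10 min 2.41 and 2.23 against 3.72 and 4.63. Both null-labelled libraries were above both WT libraries in steady state and at 10 min, and the groups overlapped at 5 min. The log2 change was 0.60 (SE 0.18, limma adjusted p = 0.211), 0.18 (SE 0.34, limma adjusted p = 0.915) and 0.81 (SE 0.14, limma adjusted p = 0.112) in that order, so it did not pass 0.05 in any table.

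Short genes as a whole also had higher values in the null-labelled libraries in steady state and at 10 min, but not at 5 min. The median log2 change of tested genes with a span under 10 kb was 0.17 in steady state, 0.00 at 5 min and 0.25 at 10 min, against 0.03, -0.06 and 0.06 over all tested genes. Ier2 has a GC content of 60.9%. Of the tested genes with 1 exon and a GC content of at least 60%, 27.9% of 183 were over 1.5-fold higher in the null-labelled libraries in steady state, 18.2% of 154 at 5 min and 32.9% of 152 at 10 min, against 7.21%, 5.40% and 9.41% of all tested genes. The median log2 change of these GC-rich genes was 0.23, -0.23 and 0.26 in the same order. No limit on reads was set for this class, which may include genes with fewer reads than Ier2. Counted from the lowest ratio of mean RPKM, Ier2 was number 8763 of 9003 genes in steady state, 5929 of 7445 at 5 min and 8077 of 8190 at 10 min. These ranks are among genes averaging 100 reads or more per library over the 12 libraries. In the 5-min libraries themselves Ier2 had 30 to 97 reads per library. With each library's GC trend taken out, the log2 change of Ier2 was 0.36 (limma adjusted p = 0.126) in steady state and 0.52 (limma adjusted p = 0.177) at 10 min.

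Of the AP-1 partners, Junb and Jund lie on the same chromosome as Ier2 and also have 1 exon. Jund (chromosome 8, 70697739 to 70700616, plus strand) had RPKM of 0.364 and 0.535 in WT and 0.706 and 1.06 in the null-labelled libraries in steady state, with no overlap. The log2 change was 0.83 (SE 0.26, limma adjusted p = 0.215), and Jund entered this test only through the higher group, which alone exceeded the limit of 0.5. At 5 min the values were 0.493 and 0.878 against 0.379 and 0.825, and at 10 min 0.222 and 0.347 against 0.278 and 0.450. The genotypes overlapped at both times, with a log2 change of -0.19 (SE 0.42, limma adjusted p = 0.924) at 5 min and a level under the limit at 10 min.

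Junb (chromosome 8, 84976909 to 84978748, minus strand, 1840 bases) showed no separation in steady state, with 1.11 and 1.58 RPKM in WT and 1.03 and 1.79 in the null-labelled libraries. It was 0.827 and 0.729 against 0.730 and 0.850 at 5 min, and 0.953 and 0.936 against 0.980 and 1.12 at 10 min. The log2 changes were 0.04 (SE 0.30), 0.02 (SE 0.18) and 0.14 (SE 0.13), with limma adjusted p of 0.964, 0.985 and 0.567. They turned negative once the GC trend was removed in steady state (-0.21) and at 10 min (-0.20), so no direction is given for Junb.

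Jun (chromosome 4, 95049036 to 95052222, minus strand, 3187 bases) encodes the first described Jun protein of AP-1. Its RPKM was 0.433 and 0.438 in WT and 0.488 and 0.505 in the null-labelled libraries in steady state, 0.382 and 0.446 against 0.342 and 0.272 at 5 min, and 0.717 and 0.455 against 0.519 and 0.648 at 10 min. The groups did not overlap in steady state or at 5 min, in opposite directions, and they overlapped at 10 min. Both earlier tables left Jun at or under the RPKM limit and untested, and the log2 change at 10 min was 0.01 (SE 0.26, limma adjusted p = 0.981).

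Fos (chromosome 12, 85473890 to 85477274, plus strand, 4 exons) was read from 3 to 26 reads per library. Its RPKM in steady state was 0.294 and 0.726 in WT and 0.506 and 0.363 in the null-labelled libraries, 0.237 and 0.185 against 0.196 and 0.452 at 5 min, and 0.705 and 0.354 against 0.547 and 0.546 at 10 min. The genotypes overlapped in all 3 conditions. Fos entered the steady-state test only through WT, at a mean of 0.510 RPKM against 0.434, and the log2 change was -0.11 (SE 0.41, limma adjusted p = 0.911) in steady state and 0.10 (SE 0.32, limma adjusted p = 0.882) at 10 min. Fosb (chromosome 7, 19302696 to 19310118, minus strand, 5 exons) had 0 to 11 reads per library and at most 0.148 RPKM, where 3 reads correspond to 0.0282 to 0.0818 RPKM. At this depth differences of Fosb between genotypes were not detectable.

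Dusp1 (chromosome 17, 26505591 to 26508472, minus strand, 4 exons), the feedback phosphatase of the group, had 15 to 99 intronic reads per library. Its RPKM was 2.39 and 2.31 in WT and 2.88 and 2.57 in the null-labelled libraries in steady state, 1.61 and 1.92 against 1.69 and 1.53 at 5 min, and 4.44 and 3.45 against 3.44 and 3.67 at 10 min. The groups were apart only in steady state, and the log2 change there was 0.20 (SE 0.09, limma adjusted p = 0.337). It was -0.12 (SE 0.16, limma adjusted p = 0.868) and -0.14 (SE 0.15, limma adjusted p = 0.630) in recovery, each within the spread between libraries.

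Egr1 (chromosome 18, 34861207 to 34864956, plus strand, 2 exons) was counted over 680 intronic bases and had 0 to 4 reads per library, with 6 of 12 libraries at 0. A count of 3 reads corresponds to 0.155 to 0.448 RPKM, which no value of Egr1 exceeded by more than 1 read. It had 2 reads in WT and 0 in the null-labelled libraries in steady state, 1 and 0 at 5 min, and 4 and 8 at 10 min. Ier3 (chromosome 17, 35821713 to 35822911, plus strand, 2 exons) was counted over an intron of 111 bases and had 0 to 3 reads per library, where 3 reads correspond to 0.947 to 2.74 RPKM. It passed the RPKM limit at 10 min only through 4 reads in the null-labelled libraries, and no fold is given. Differences of Egr1 and Ier3 between genotypes were not detectable at this depth.

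Over all 10 members the median log2 change was 0.13 in steady state, -0.16 at 5 min and 0.12 at 10 min, against 0.0042, 0 and 4.5e-05 over all listed genes and 0.03, -0.06 and 0.06 over the tested genes. Over the tested genes with a span under 10 kb it was 0.17, -0.0015 and 0.25. Of the members, 6, 5 and 7 passed the RPKM limit and were tested, and 0 had a limma adjusted p under 0.05 in any table, where 0% of the 11347, 8985 and 10241 tested genes did. With an unadjusted p under 0.05 there were 2083, 846 and 2098 genes. A mean more than 1.5-fold higher in the null-labelled libraries was seen in 3 of 10 members in steady state (background 7.21%), 2 at 5 min (5.40%) and 3 at 10 min (9.41%), and more than 1.5-fold higher in WT in 1 (2.10%), 3 (6.72%) and 1 (3.01%). The backgrounds are shares of the tested genes, whereas the counts of members include untested ones such as Fosb, Egr1 and Ier3, whose ratios rest on a few reads. Of the tested genes with 1 exon, as Jun, Junb, Jund and Ier2 have, larger shares were over 1.5-fold higher in the null-labelled libraries. These were 21.3% in steady state, 16.7% at 5 min and 24.0% at 10 min. Both null-labelled libraries lay above both WT libraries for 5 members in steady state (background 32.0%), 0 at 5 min (15.4%) and 3 at 10 min (33.5%), and below them for 1 (21.4%), 3 (25.0%) and 1 (21.8%). The smallest two-sided p of an exact permutation test of 2 against 2 libraries is 0.333, so no single gene was tested that way.

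**Figure D4:**
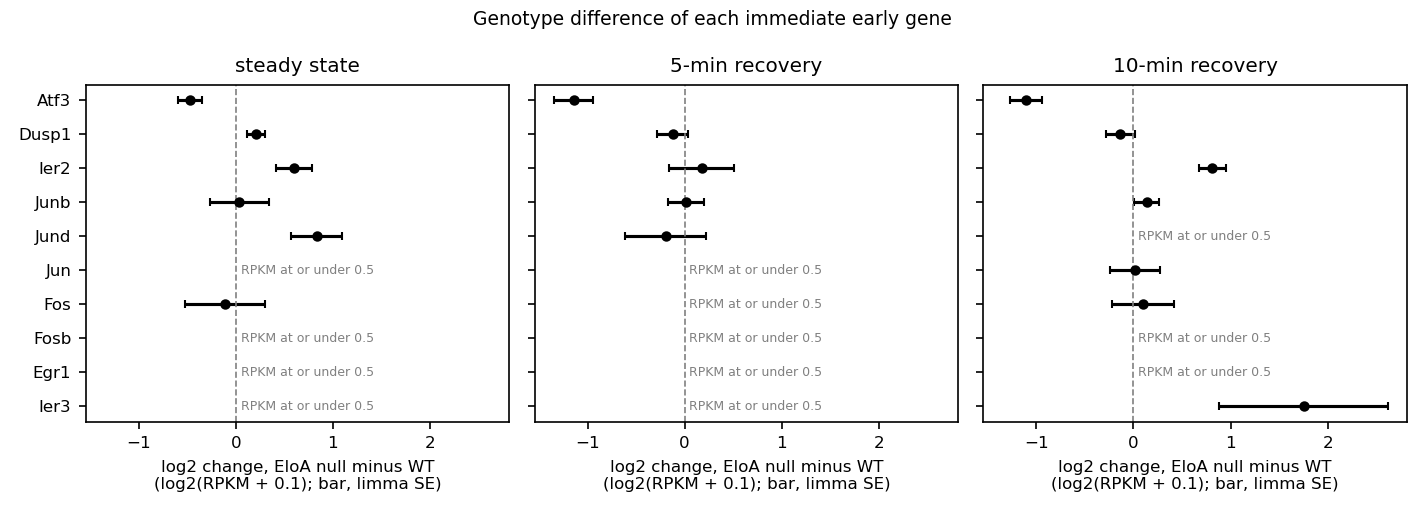
Log2 change of each member between genotypes, EloA null minus WT on the log2(RPKM + 0.1) scale, in steady state and at 5 and 10 min of recovery. Points are limma estimates with bars of 1 standard error, and members at or under 0.5 RPKM in both genotypes were not tested. Atf3 lies at -0.47, -1.14 and -1.11, and Ier2 at 0.60, 0.18 and 0.81.

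The recovery from FP was described by the ratio of the mean RPKM in recovery to that in steady state in the same genotype. RPKM is scaled to a library size, and whether that size includes a normalization factor is not known here. A ratio over 1 therefore does not necessarily mark more RNA. The conditions were deposited as 3 tables whose scaling to one another is not given in the sources used here, and labelling lasted 5 min in 1 of them and 10 min in the others, so the ratios are set against those of other genes and were not tested. Among genes with a span under 10 kb, over 0.5 RPKM in steady state and with at least 20 reads, the median ratio in WT was 0.853 at 5 min (quartiles 0.490 and 1.37) and 1.42 at 10 min (quartiles 0.893 and 2.12). In the null-labelled libraries it was 0.737 (quartiles 0.387 and 1.24) and 1.47 (quartiles 0.919 and 2.24). The 6 members averaging 20 reads or more had a median ratio of 0.822 and 1.04 in WT and 0.605 and 0.923 in the null-labelled libraries. Atf3, which is among them, spans 13038 bases and so lies outside the length class of the short genes. Jun and Jund are among them too, but did not meet the RPKM limit of the short genes throughout. The steady-state mean of Jun was 0.436 RPKM in WT and 0.497 in the null-labelled libraries, and that of Jund was 0.449 in WT.

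The members split at 10 min. Dusp1 and Atf3, which are read over introns, exceeded their steady-state RPKM in WT, with ratios of 1.68 and 1.56, as did Jun at 1.34. The median of the genes under 10 kb was also over 1, at 1.42. Ier2 (0.737), Junb (0.702) and Jund (0.632), which have a single exon as Jun has, were below their steady-state RPKM in WT. Both recovery libraries of each lay under both steady-state libraries. In the null-labelled libraries Jund alone of these 3 was below in that way, and Ier2 and Junb overlapped steady state. These 3 lay under the first quartile of the short genes, 0.893. The 425 genes with 1 exon that passed the same limits on RPKM and reads had a median ratio of 1.27 at 10 min in WT (quartiles 0.749 and 1.94). Jund itself, at 0.449 RPKM in WT in steady state, was under the RPKM limit set for these genes. The 3 members were close to that lower quartile, and their side of it depended on single libraries in a check chosen after seeing the data. Without replicate 2 of the WT steady-state libraries the quartile was 0.804, with Ier2 at it, Junb above it at 0.848 and Jund below it at 0.781. Without replicate 1 of the WT libraries at 10 min it was 0.708, with Jund (0.771) and Ier2 (0.709) above it and Junb (0.696) below.

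At 5 min Atf3 stood at 0.547 of steady state in WT, Junb at 0.578, Dusp1 at 0.751, Ier2 at 0.894, Jun at 0.950 and Jund at 1.53, of which Atf3, Junb and Dusp1 had no overlap with steady state. The Jund value came from recovery libraries at 0.493 and 0.878 RPKM, whose ratios lay furthest apart among the 6 members. The Atf3 level at 10 min was 2.86 times that at 5 min in WT and 3.09 times in the null-labelled libraries, and for Dusp1 the factors were 2.24 and 2.21, between tables with unequal labelling. They were 1.42 and 1.90 for Jun, 1.21 and 1.33 for Junb, 0.825 and 1.34 for Ier2 and 0.414 and 0.605 for Jund, against medians of 1.54 and 1.82 over the genes with a span under 10 kb. Atf3, at 13038 bases, is longer than these genes, and no recovery median was taken for genes of its length. The ratio of Atf3 to its own steady state was 0.319 at 5 min and 0.986 at 10 min in the null-labelled libraries, against 0.547 and 1.56 in WT.

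Counting all 10 members, both recovery libraries lay below both steady-state libraries for 4 members in WT at 5 min (background 65.1%) and for 3 at 10 min (40.6%), and above them for 0 (22.4%) and 4 (46.6%). In the null-labelled libraries they lay below for 6 (68.7%) and 1 (41.3%) and above for 0 (20.0%) and 5 (47.3%). The backgrounds are shares of the 9911 genes in WT and 10132 in the null-labelled libraries with more than 0.5 RPKM in steady state and at least 20 reads. The members' counts also include genes near 0.

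**Figure D5:**
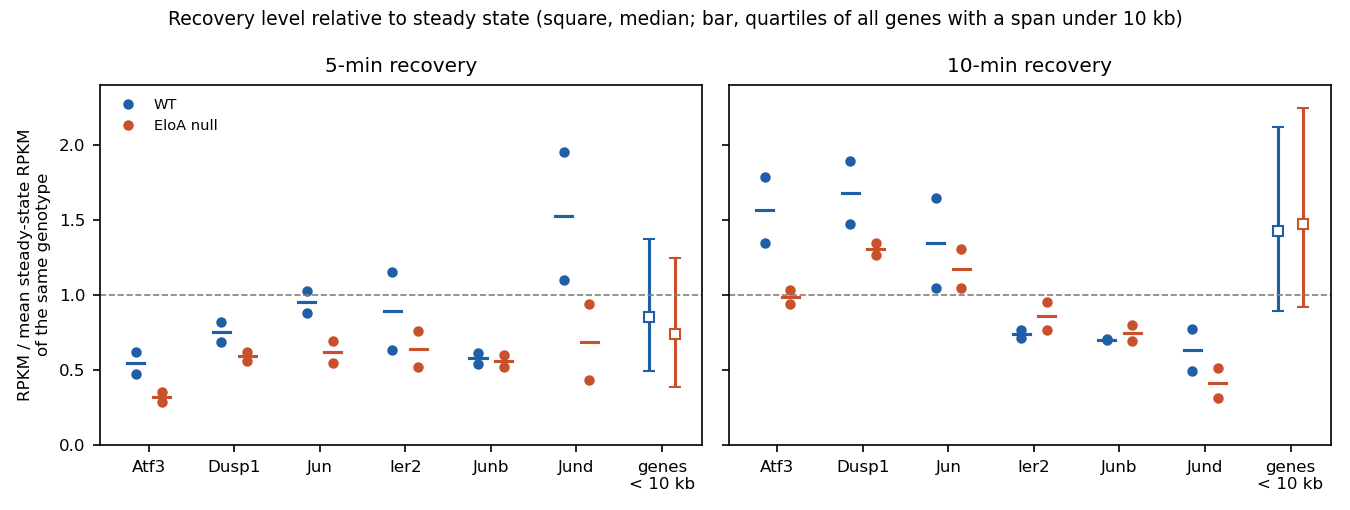
Level in recovery divided by the genotype's own steady-state mean (RPKM over RPKM) at 5 min and 10 min, for the 6 members averaging 20 reads or more. Points are single recovery libraries, bars the ratio of means, and open squares with bars the median and quartiles of genes with a span under 10 kb. Atf3 has a longer span than these genes. At 10 min Ier2, Junb and Jund lie below 1 in both genotypes, while Dusp1 and Jun lie above 1.

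Another 58 genes known as immediate early or early response genes were listed as a frame for the members, of which 43 passed the RPKM limit in steady state, 33 at 5 min and 43 at 10 min. None had a limma adjusted p under 0.05, and 11, 5 and 12 had an unadjusted p under 0.05, where 2083 of 11347, 846 of 8985 and 2098 of 10241 tested genes did. More than 1.5-fold differences were 9 higher and 1 lower in the null-labelled libraries in steady state (backgrounds 7.21% and 2.10%), 2 and 5 at 5 min (5.40% and 6.72%), and 10 and 3 at 10 min (9.41% and 3.01%). The median log2 change was 0.23, 0.02 and 0.16, against 0.03, -0.06 and 0.06 over all tested genes.

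Errfi1, a feedback inhibitor of the EGF receptor, was lower in the null-labelled libraries without overlap in all 3 conditions, as Atf3 was. Genes of this list were named in a condition only if their genotypes did not overlap there, so this was required of Errfi1. Its mean RPKM was 1.33 against 2.03 in WT in steady state (log2 change -0.61, SE 0.22, limma adjusted p = 0.259), 0.313 against 0.749 at 5 min (-1.04, SE 0.25, limma adjusted p = 0.376) and 1.90 against 3.78 at 10 min (-0.94, SE 0.19, limma adjusted p = 0.135). Ctgf, a matricellular growth factor gene, was 2.16 against 4.04 at 5 min. At 10 min Fosl2, a further Fos family member, was 0.561 against 0.893 and Nfkbiz, a nuclear regulator of NF-kB, 0.557 against 0.876. None of these differences passed 0.05 after adjustment. The feeder marker sums given beside Atf3 moved in the same direction in these tables, and their part here was not tested either.

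Among the higher genes, Ppp1r15a, which encodes the stress-induced phosphatase subunit GADD34, had a mean RPKM of 1.43 against 0.794 in WT in steady state and 2.09 against 1.04 at 10 min. Gadd45a, a DNA damage response gene, stood at 2.10 against 1.07 in steady state. Ier5l stood there at 0.947 ± 0.477 against 0.358 ± 0.241 RPKM (SD, n = 2 each), with a mean of 27.2 reads per library. The log2 change of Ier5l was 1.22 (SE 0.51, limma adjusted p = 0.311). Myc was 0.981 ± 0.121 against 0.354 ± 0.0134 RPKM (SD, n = 2 each) at 10 min, a log2 change of 1.25 (SE 0.17, limma adjusted p = 0.0968), and Gadd45b was 1.70 against 0.799. These libraries did not overlap between genotypes, which the rule for naming them required. Mean reads per library were 29 in steady state and 37 at 10 min for Ppp1r15a and 44 in steady state for Gadd45a. At 10 min they were 41 for Myc and 24 for Gadd45b.

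In recovery relative to steady state, Sik1, Cyr61 and Gadd45a had the highest ratios of the 33 other early genes with enough reads in WT, at both times. Sik1, a salt-inducible kinase gene, had 3.47 times its steady-state RPKM at 5 min and 4.13 times at 10 min. The lowest ratios in WT were those of Hes1 (0.244), Mafk (0.294) and Per1 (0.305) at 5 min and of Gadd45b (0.606), Id3 (0.616) and Hes1 (0.647) at 10 min. The median of the 33 genes was 0.836 at 5 min and 1.39 at 10 min, against 0.853 and 1.42 for the short genes in general. In the null-labelled libraries the highest ratios of 36 such genes were those of Sik1 (2.81), Gadd45a (2.43) and Zfp36l1 (1.65) at 5 min and of Sik1 (3.91), Trib1 (2.44) and Dusp6 (2.09) at 10 min. The lowest there were Socs3 (0.152), Fosl1 (0.199) and Mafk (0.222), then Hes1 (0.613), Klf2 (0.645) and Fosl1 (0.666), with medians of 0.652 and 1.28.

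Factors that act on the members were listed as well. Of 27 upstream regulators and zipper partners, 25, 22 and 22 were tested and none passed 0.05 in limma, with 2, 2 and 3 at an unadjusted p under 0.05. Srf, which encodes the factor that binds the CArG box, had a mean in the null-labelled libraries of 4.03 against 2.56 RPKM in steady state (log2 change 0.63, SE 0.14, limma adjusted p = 0.158) and 5.66 against 3.14 at 10 min (0.83, SE 0.22, limma adjusted p = 0.173). Atf4, the activator of Atf3 in the integrated stress response, was 5.43 against 3.54 at 10 min (0.61, SE 0.15, limma adjusted p = 0.160). Of 20 pause release factors, P-TEFb subunits and NELF among them, 0 were more than 1.5-fold lower, and Eloa was the 1 gene more than 1.5-fold higher in each table. Of 10 short housekeeping genes, 0 differed more than 1.5-fold in any table, with a median log2 change of 0.27, 0.01 and 0.31 and 3, 0 and 6 genes at an unadjusted p under 0.05.

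The genes whose pattern over the 12 libraries was most like the mean pattern of the 5 members with a mean over 0.5 RPKM were Pold1 (Pearson r = 0.934), Srxn1 (0.930), Rps15 (0.929), Retreg2 (0.929) and Srm (0.924), out of 9467 genes. The points share the 3 conditions and their tables, so these values describe likeness only. Of the 4 other members with such a mean (Dusp1, Ier2, Junb and Jund), Atf3 was most like Dusp1 (r = 0.773 over the 12 libraries) and least like Jund (r = -0.512).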

How the data were processed

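The authors aligned paired-end Bru-seq reads to mm10 and dm3 with bowtie2 (2.3.4.3), counted them in RefSeq genes with featureCounts (1.6.1), normalized with edgeR and deposited RPKM values, in 1 table per condition and with replicates kept apart. The scaling between tables, any use in it of the Drosophila spike-in RNA that the study added, and whether strand was used in counting, are not given in the sources used here. Library sizes and reads were recovered from the steps between low values with the intron or span lengths of GRCm38 RefSeq genes. These sizes are those behind the RPKM values and may include a normalization factor. Between 98.9% and 99.2% of low values came out whole with intron lengths, against 9.31% to 10.6% with spans, within 0.05 reads. The reads served to describe depth only.

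Genotypes were compared within each table with limma 3.58.1 (R 4.3.3) on log2(RPKM + 0.1), a scale that understates changes of low genes, with an intensity trend, over genes above 0.5 RPKM in either genotype, and Benjamini-Hochberg adjustment. Interactions used all 12 libraries. On simulated steady-state tables of 10965 genes, with 50 genes altered at each fold, limma called 0 at 1.5-fold, 6 at 2-fold and 42 at 4-fold, beside 12 false calls. The simulation gave every gene the same relative spread beyond counting noise and used the steady-state library sizes. Its counts do not describe the recovery tables. The 3 largest rises and falls per list were named among genes past 1.5-fold without overlap and with at least 20 reads, as were the 3 highest and lowest recovery ratios and the 5 genes most like the members. The members, lists and tests were chosen with earlier results of these data known. Alternatives were other pseudocounts (1 and 0.01), no RPKM limit, centring, removal of GC or length trends, 1 fit of all 12 libraries, robust variances, a replicate block and leaving out each library. Motif searches and tables used Python. The other 16 samples (CUT&RUN and ChIP) were not used here.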

Additional observations from a re-analysis of the deposited data

How the results depend on the processing

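The counts of called genes depended on the estimate of the spread. Over all genes of a table, limma called 0 genes in each of the 3 tables, and 132 in steady state, 532 at 5 min and 264 at 10 min when all 12 libraries shared 1 spread, or 81, 29 and 26 with robust variances. Removal of the GC trend gave 13 at 5 min and 38 at 10 min. At 10 min a pseudocount of 1 gave 5, centring on the median 12 and removal of the length trend 10. Leaving out 1 library in turn gave 0 in steady state, 0 to 60 at 5 min and 0 to 33 at 10 min. For the genotype difference between conditions the counts were 12 at 5 min (3 with a pseudocount of 1, 97 with no limit on RPKM, 2 to 28 leaving out 1 library) and 1 at 10 min (4 with a pseudocount of 1, 54 with no limit, 2 to 4 leaving out 1 library). The cause of these changes was not tested.

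Replicate numbers are shared between genotypes, and same-numbered libraries deviated together with correlations of 0.101, 0.119 and 0.103 in the 3 tables, over 2 pairs each, so the numbers were not taken as a pairing. With the replicate block limma called 0 genes in steady state, 128 at 5 min and 0 at 10 min, and 2 and 1 genes for the differences between conditions. Atf3 at 5 min passed with the block (limma adjusted p = 0.0192), and no other member did. In steady state the block changed the SE from 0.302 to 0.115 for Junb and from 0.26 to 0.143 for Jund. For Ier2 the SE went from 0.183 to 0.105 and for Fos from 0.412 to 0.399. For Atf3 it went from 0.121 to 0.0971 and for Dusp1 from 0.093 to 0.0952.

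No member passed the threshold in any other alternative than those given for Atf3. Members near 0 changed direction. For Junb the log2 change was -0.024 after centring, -0.21 without the GC trend and -0.13 without the length trend in steady state, -0.060 without the length trend at 5 min, and -0.20 and -0.078 without these trends at 10 min, and its difference at 5 min against steady state became 0.13 after centring. At 10 min Fos was -0.10 and -0.12 without the GC and length trends, and Jun was -0.082 after centring and -0.26 and -0.20 without the trends.

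Leaving out 1 library in turn, the log2 change ran from -0.64 to 0.43 for Fos and -0.33 to 0.40 for Junb in steady state, from -0.080 to 0.11 for Junb, -0.67 to 0.28 for Jund and -0.24 to 0.59 for Ier2 at 5 min, and from -0.32 to 0.51 for Fos, -0.26 to 0.29 for Jun and -0.31 to 0.041 for Dusp1 at 10 min. The difference against steady state ran from -0.044 to 1.03 for Fos and -0.39 to 0.35 for Junb at 5 min, and from -0.33 to 0.74 for Fos, -0.42 to 0.14 for Jun, -0.27 to 0.47 for Junb and -0.0020 to 0.43 for Ier2 at 10 min. Divided by the median ratio of genes under 10 kb, the median recovery ratio of the 6 members was 0.731 in WT at 10 min and 0.821 and 0.626 in the null-labelled libraries at 5 and 10 min. Undivided, that median in the null-labelled libraries was 0.605 at 5 min and 0.923 at 10 min, and leaving out 1 library gave 0.520 to 0.693 and 0.888 to 1.02. Depth limits Fos, Fosb, Egr1 and Ier3, for which a single read shifts a value.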
